A study of Mus musculus with 8 samples.

Results

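The 32 genes described here encode the regulators that set how much mitochondrial machinery a cell makes, the factors that copy and transcribe mitochondrial DNA, and the chaperones and proteases that fold and remove mitochondrial proteins. They were taken from a list of symbols, and a gene was used if the array held a probe for it that the scanner software marked as well above background in at least 4 of the 8 channels. All 32 listed genes met this rule, among 14287 genes with a symbol that did, and each is represented by its brightest such probe. The list holds 8 coactivators and transcription factors, 8 genes for copying and transcribing mitochondrial DNA, 1 mitochondrial deacylase, 6 chaperones and 9 proteases and prohibitins. All 32 were well above background in all 8 channels and none was saturated in any of them.

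The samples were kidneys of mice carrying a homozygous mutation of Pus1, which the series title calls a knockout, and of wild-type mice. Pus1 encodes pseudouridine synthase 1, an enzyme that turns uridines of tRNA and other RNAs into pseudouridine, and its activity reaches mitochondrial as well as cytoplasmic tRNA. Each genotype had 4 mice (2 females, replicates 1 and 2, and 2 males, replicates 3 and 4), all 14 to 16 weeks old, of strain C57BL/6J with 5 generations of backcrossing. From each mouse, 200 ng of RNA from a frozen section across the whole kidney was labelled with Cy3 or Cy5, and each of the 4 arrays held 1 mutant and 1 wild-type mouse of 1 sex and replicate number. The dyes alternated: the mutant was labelled with Cy5 for arrays 1 and 3 and with Cy3 for the others. Both sexes lay at different positions of the same slide, so sex and slide position cannot be told apart. The labels do not give which part of Pus1 was altered. The whole kidney was sampled, so fewer cells of a type and less RNA per cell cannot be told apart.

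In each sample 26914 to 30524 of 55681 probes were well above background, and with 4 arrays in all, 2 of each sex, the number of arrays limits the precision. The Pus1 probe had a mean log2 intensity of 10.27 ± 0.18 in wild type and 7.31 ± 0.27 in mutants (SD, n = 4 each). All 12 listed proximal tubule markers were measured, with a log2 of their summed intensity of 20.26 to 20.77 over the 8 samples. The sum does not show single markers, of which 3 were higher and 3 lower in males (limma adjusted p under 0.05). Their log2 ratios of male over female ran from −0.77 to 7.92. Fat and urothelium markers were measured as well and moved between samples. The log2 of the summed brown fat markers was 14.24 to 16.19 in wild type and 15.14 to 16.36 in mutants, that of white fat markers 16.76 to 18.57 and 16.92 to 17.88, and that of urothelium markers 12.50 to 14.22 and 12.73 to 13.81.

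Most mitochondrial proteins are encoded in the nucleus. Coactivators of the PGC-1 family (Ppargc1a, Ppargc1b and Pprc1) do not bind DNA themselves but join transcription factors such as nuclear respiratory factor 1 (Nrf1), the GA-binding protein (Gabpa) and the estrogen-related receptor alpha (Esrra), which switch on genes for respiration and for the upkeep of mitochondrial DNA. Imported proteins are folded by mitochondrial Hsp70 and the Hsp60 chamber and are cleared by proteases of the matrix and the inner membrane, and when unfolded proteins build up, cells raise the genes of these chaperones and proteases through factors such as Atf5. The proximal tubule of the kidney is rich in mitochondria, since its salt and solute uptake is driven by oxidative metabolism.

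No gene of the 32 differed between mutant and wild-type kidneys past the adjustment over all genes (0 of 32, limma adjusted p under 0.05), whereas 6 of 22128 genes or unnamed probes did so, or 0.0271%. At an unadjusted p under 0.05 there were 3 of the 32 genes, Atf5 and Clpx higher and Pprc1 lower in mutants, against 4.46% of all items (2.58% higher and 1.88% lower). The fitted log2 ratio of mutant over wild type ran from −0.55 (Pprc1) to 0.26 (Atf5), with a median of 0.03 over the 32 genes and −0.0045 over all items. It was above 0 for 22 genes and below 0 for 10, and 48% of all items were above 0. With median in place of loess normalization 16 were above and 16 below 0, with a median of −0.005, and 38.8% of all items were above 0, with a median of −0.027. The samples of both genotypes overlapped for all 32 genes (0 without overlap, against 0.655% of all items). The 95% interval of the log2 ratio lay within 1.5-fold in either direction for 31 of the 32 genes, and the exception was Pprc1, whose interval ran from −1.06 to −0.05. These intervals leave out the part of the spread between arrays that the dye term of the fit takes up.

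**Figure D1:**
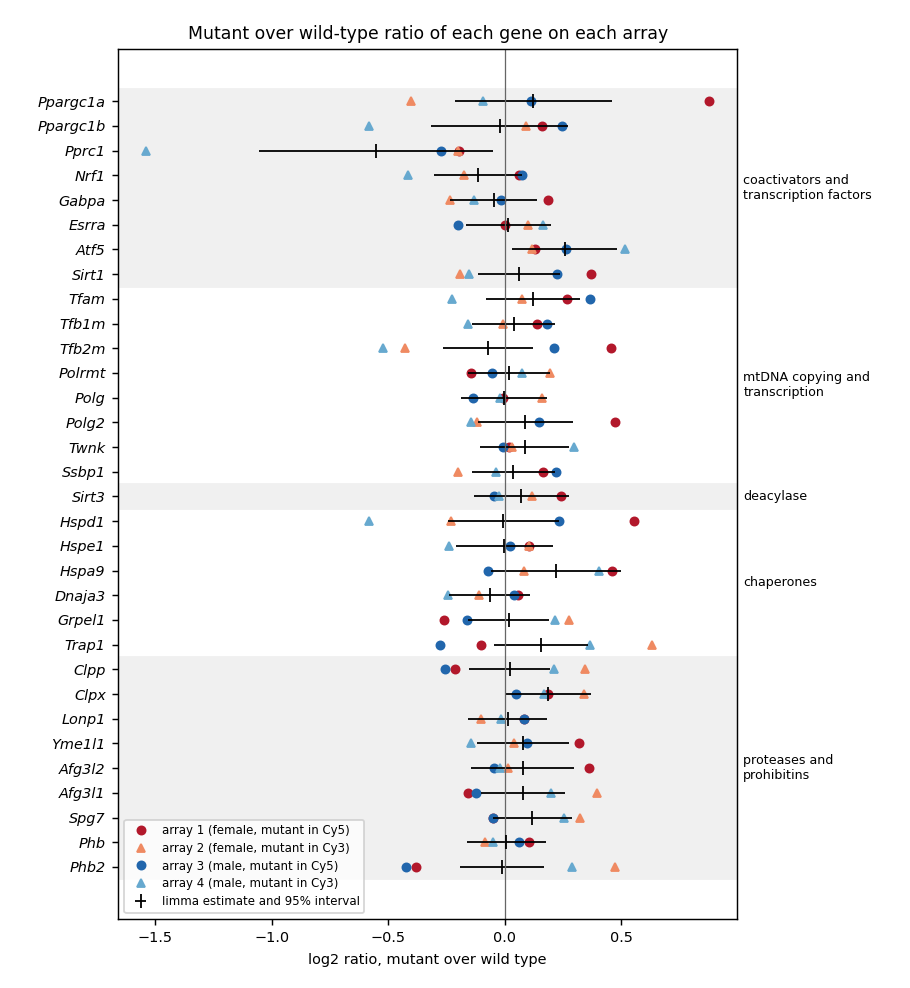
Log2 ratio of mutant over wild type for each of the 32 genes (rows, grouped by role) on each of the 4 arrays, with limma's estimate (tick) and 95% interval (line). Circles are arrays with the mutant in Cy5 and triangles arrays with it in Cy3; the estimates lie between −0.55 (Pprc1) and 0.26 (Atf5), and the 31 intervals other than that of Pprc1 stay within 1.5-fold.

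Among the coactivators and transcription factors, Pprc1 had the lowest ratio of the list. Its mean log2 intensity, 7.55, was also the lowest of the 32 genes. The probes of Polg2 and Grpel1 that were not kept had mean log2 intensities of 6.72 and 6.82. Pprc1 encodes the PGC-1-related coactivator. The log2 intensities were 7.57, 7.63, 7.30 and 8.79 in the 4 wild-type mice, in order of replicate, and 7.38, 7.43, 7.03 and 7.26 in the 4 mutants. Wild-type male replicate 4 stood above the 7 other samples, which lay within 7.03 to 7.63, and the groups overlapped. The mutant was lower on all 4 arrays, with log2 ratios of −0.20, −0.20, −0.27 and −1.54, and the fit gave −0.55 ± 0.205 (SE, n = 4 arrays, limma unadjusted p = 0.0361, adjusted p = 0.98). Without replicate 4 the log2 ratio was −0.22 (limma adjusted p = 0.80).

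Atf5, a transcription factor of the mitochondrial unfolded protein response, had the highest ratio. On arrays 1 to 4 the log2 intensity was 12.84, 12.87, 12.13 and 12.33 in the wild-type mouse and 12.97, 12.98, 12.39 and 12.85 in the mutant. Every mutant exceeded the wild-type mouse on its own array, while 3 of the 4 males lay below all females, so that the genotypes overlapped. The log2 ratios were 0.13, 0.12, 0.26 and 0.52 on arrays 1 to 4, and the fit gave 0.26 ± 0.092 (SE, n = 4 arrays, 1.19-fold, limma unadjusted p = 0.0315, adjusted p = 0.98).

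Ppargc1a, the coactivator PGC-1 alpha and the best known inducer of mitochondrial genes, varied most among the females. Wild-type mice 1 to 4 gave log2 intensities of 12.17, 12.76, 12.88 and 13.15, and mutant mice 1 to 4 gave 13.04, 12.36, 12.99 and 13.05. On array 1 the mutant was higher, with a log2 ratio of 0.88, and on array 2 it was lower, with −0.40, so the female pairs moved in opposite directions. The fit gave 0.12 ± 0.138 (SE, n = 4 arrays, limma adjusted p = 0.98), with a 95% interval of −0.22 to 0.46. Ppargc1a and Grpel1 lie on chromosome 5, as Pus1 does, and had log2 ratios of 0.12 and 0.02.

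Ppargc1b, the coactivator PGC-1 beta, gave log2 intensities of 9.03, 8.73, 8.90 and 9.30 in wild-type and 9.19, 8.82, 9.15 and 8.71 in mutant replicates 1 to 4. The mutant was higher on 3 arrays and lower on array 4, where the log2 ratio was −0.59, and the fit gave −0.02 ± 0.120. Nrf1, the nuclear respiratory factor that binds promoters of respiratory genes, gave 9.89, 9.75, 9.87 and 10.05 in wild-type and 9.96, 9.58, 9.95 and 9.63 in mutant replicates 1 to 4. Its groups overlapped and its log2 ratio was −0.11 ± 0.077. The 3 other genes of this role had log2 ratios between −0.05 and 0.06. Gabpa, the DNA-binding subunit of the GA-binding protein, had a log2 ratio of −0.05 ± 0.076, Esrra 0.02 ± 0.075, and Sirt1, a nuclear deacetylase that acts on PGC-1 alpha, 0.06 ± 0.072.

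The 8 genes for copying and transcribing mitochondrial DNA had fitted log2 ratios between −0.07 (Tfb2m) and 0.12 (Tfam), 6 of them above 0. Tfam encodes the factor that packs mitochondrial DNA and starts its transcription. The log2 intensities were 10.81, 10.92, 10.79 and 10.94 in the 4 wild-type mice, in order of replicate, and 11.08, 10.99, 11.15 and 10.71 in the 4 mutants. The mutant was higher on arrays 1 to 3 and lower on array 4, the groups overlapped, and the fit gave 0.12 ± 0.083 (SE, n = 4 arrays, limma adjusted p = 0.98). The log2 ratio was 0.02 for Polrmt, the mitochondrial RNA polymerase, and 0.04 and −0.07 for Tfb1m, an rRNA methyltransferase related to transcription factor B2, and Tfb2m, the initiation factor itself. It was −0.002 and 0.09 for Polg and Polg2, the catalytic and the accessory subunit of the DNA polymerase, 0.09 for Twnk, the helicase, and 0.04 for Ssbp1, the protein that binds single-stranded mitochondrial DNA. The standard errors of these 8 log2 ratios were 0.072 to 0.083.

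Nuclear respiratory factors are known from their binding to promoters of this kind, so the 250 bases before each listed gene start were searched, on both strands, for the letters CCGGAAG, the core of the GA-binding protein's site. RefSeq windows of build GRCm38.p6 were used, and 29 of the 32 genes had one. CCGGAAG was found before 13 of the 29 genes, or 44.8%, and before 7.83% of all 27025 genes with a window, 10.2% of protein-coding genes and 13.8% of the 11328 genes measured here. Of the 8 genes for copying and transcribing mitochondrial DNA, 6 held it (Tfam, Polrmt, Polg, Polg2, Twnk and Ssbp1) and Tfb1m and Tfb2m did not in this window. The stretches around the match are shown for these 6 genes, since most genes of this role hold it, with the match in capitals and read on the strand of the gene. CTTCCGG is the same core on the opposite strand, and of the matches of Twnk the one nearest a listed start is shown. A match is a run of letters and not a measured binding site.
Tfam, chr10:71238075-71238101, minus strand: ctgccgcggaCCGGAAGtccgggcttc
Polrmt, chr10:79746608-79746634, minus strand: cctaagagcgCTTCCGGcagtcgcaga
Polg, chr7:79466295-79466321, minus strand: aggacctcacCCGGAAGtccctctgca
Polg2, chr11:106779550-106779576, minus strand: gggtgacgctCTTCCGGgggcgtggtc
Twnk, chr19:45006482-45006508, plus strand: gagagttttgCTTCCGGagtcaccgcg
Ssbp1, chr6:40471411-40471437, plus strand: gctccgtgcgCCGGAAGcgagccgctg

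The match began 47 bases before a listed start in Tfam and Ssbp1, 43 in Polrmt, 38 in Polg, 29 in Polg2 and 66 in Twnk. A gene was counted if the match stood before any of its listed starts. In Tfam, Polg, Twnk and Ssbp1 the match lay inside the span listed for the gene, before a start further in. The other genes with this core were Gabpa itself, Grpel1, Hspd1, Hspe1, Phb2, Sirt3 and Yme1l1. The core of nuclear respiratory factor 1 (GCGCA and, after any 1 base, GCGC) was found before 4 of the 29 genes (Afg3l1, Dnaja3, Hspd1 and Spg7), or 13.8%, and before 4.23% of all genes and 8.12% of the measured ones. The estrogen-related receptor's element AAGGTCA was found before 4 genes (Hspd1, Hspe1, Trap1 and Twnk), also 13.8%, and before 4.7% of all genes. For this element and for CCGGAAG, the matches of Hspd1 and Hspe1 are the same bases, counted for each gene. The amino acid response element TGATGNAA, to which factors of the Atf4 kind bind, was found before 1 gene, Esrra, and before 3.91% of all genes.

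Among the 6 chaperones the log2 ratio of mutant over wild type ran from −0.07 to 0.22, with 3 genes above and 3 below 0. Hspa9, mitochondrial Hsp70, which pulls proteins into the matrix and folds them, had the highest ratio of these. On arrays 1 to 4 the log2 intensity was 13.40, 13.65, 14.16 and 13.87 in the wild-type mouse and 13.87, 13.74, 14.08 and 14.28 in the mutant. The mutant was higher on arrays 1, 2 and 4 and lower on array 3, and the fit gave 0.22 ± 0.113 (SE, n = 4 arrays, 1.16-fold, limma adjusted p = 0.98). Trap1, the mitochondrial Hsp90, gave 12.61, 12.14, 12.34 and 12.02 in wild-type and 12.51, 12.77, 12.06 and 12.38 in mutant replicates 1 to 4. It was lower in the mutant on both arrays with the mutant in Cy5 and higher on both with the mutant in Cy3, and its log2 ratio was 0.15 ± 0.083 with the dye term in the fit.

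Hspd1 and Hspe1 encode Hsp60 and Hsp10, the barrel and the lid of the chamber in which matrix proteins fold. Hspd1 gave log2 intensities of 14.88, 15.39, 15.96 and 16.16 in wild-type mice 1 to 4, and 15.43, 15.16, 16.20 and 15.57 in mutant mice 1 to 4. That of Hspe1 was 14.50, 14.50, 14.64 and 14.53 in wild type and 14.61, 14.61, 14.66 and 14.29 in mutants. Hspd1 separated by sex and not by genotype, and Hspe1 by neither. The log2 ratio of mutant over wild type was −0.01 ± 0.097 for Hspd1 and −0.003 ± 0.085 for Hspe1, with 95% intervals of −0.24 to 0.23 and −0.21 to 0.21. The cochaperones of mitochondrial Hsp70 were close to 0 as well, with −0.07 ± 0.071 for the J protein gene Dnaja3 and 0.02 ± 0.070 for the nucleotide exchange factor gene Grpel1.

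Of the 9 proteases and prohibitins, 8 had a log2 ratio above 0 and 1, Phb2, below. Clpx, the ATPase that unfolds proteins for the matrix protease ClpP, gave log2 intensities of 12.15, 12.14, 12.18 and 12.38 in wild-type and 12.33, 12.48, 12.23 and 12.55 in mutant replicates 1 to 4. Every mutant exceeded the wild type on its array, although wild-type replicate 4 lay above 2 of the mutants. The log2 ratio was 0.18 ± 0.075 (SE, n = 4 arrays, 1.14-fold, limma unadjusted p = 0.0497, adjusted p = 0.98).

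Clpp, the protease that Clpx feeds, gave 12.12, 11.71, 11.82 and 11.60 in wild-type and 11.91, 12.05, 11.56 and 11.81 in mutant replicates 1 to 4. Its sign on each array followed the dye of the mutant, and its log2 ratio was 0.02 ± 0.071. Lonp1, the main protease for damaged matrix proteins, gave 14.67, 14.71, 14.61 and 14.62 in wild-type and 14.75, 14.60, 14.69 and 14.61 in mutant replicates 1 to 4. All 8 samples of Lonp1 lay within 14.60 to 14.75, and its log2 ratio was 0.01 ± 0.070. The inner membrane protease genes Yme1l1, Afg3l2, Afg3l1 and Spg7 had log2 ratios of 0.08, 0.08, 0.08 and 0.12, with standard errors of 0.069 to 0.091. The prohibitin genes Phb and Phb2, which encode ring-forming scaffold proteins of the inner membrane, had 0.01 and −0.01, and Sirt3, the main deacylase of the matrix, had 0.07 ± 0.083.

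The sign of the ratio followed the orientation of the dyes in many of these genes. For 11 genes (Dnaja3, Hspd1, Lonp1, Nrf1, Phb, Polg2, Ppargc1a, Sirt1, Ssbp1, Tfb1m and Tfb2m) the log2 ratio was above 0 on both arrays with the mutant in Cy5 and below 0 on both with it in Cy3, and for 8 (Afg3l1, Clpp, Esrra, Grpel1, Phb2, Polrmt, Spg7 and Trap1) it was the other way round. Together these were 19 of 32 genes, against 34.3% of all items. No gene's dye term passed the adjustment (0 of 32, limma), against 2.16% of all items. The fitted ratios carry a term for the dye, which takes up a gap shared by arrays of 1 orientation. Ratios of 1 sign on all 4 arrays were found for Atf5 and Clpx, above 0, and for Pprc1, below 0, and 8.15% of all items had 1 sign on all 4 arrays (4.24% above and 3.91% below 0).

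The response of the genes to the mutation was then compared between male and female pairs, and 0 of 32 differed past the adjustment (limma), against 0.14% of all items. At an unadjusted p under 0.05 there were also 0 of 32, against 3.81% of all items. The mutant over wild-type ratio was lower in the male than in the female pairs for 27 genes and higher for 5, with a median difference of −0.10 on the log2 scale, and 52.2% of all items had a difference above 0. With median normalization the difference was below 0 for 22 genes and above 0 for 10, with a median of −0.05, and 62.3% of all items were above 0. The largest differences were −0.71 ± 0.300 for Pprc1 (SE, limma unadjusted p = 0.0524), −0.34 ± 0.174 for Hspd1, −0.29 ± 0.228 for Ppargc1b and 0.27 ± 0.181 for Atf5, all with an adjusted p of 1.00. For Hspd1 the mean log2 ratio was 0.16 in the female pairs and −0.17 in the male pairs, but its pairs of 1 sex were of opposite sign (0.55 and −0.23 in females, 0.23 and −0.58 in males). For Ppargc1b it was 0.13 and −0.17, for Atf5 0.12 and 0.39, and for Pprc1, the dimmest of the 32 genes, −0.20 and −0.91. The 5 genes with a higher ratio in males were Atf5, Twnk, Ssbp1, Lonp1 and Grpel1. In lists of related genes, the difference was below 0 for 15 of 18 other proteases and related genes and 9 of 11 sirtuin and NAD genes. It was so for 12 of 16 dynamics and mitophagy genes, 16 of 26 other genes for mitochondrial DNA and RNA and 15 of 26 import genes. For other coactivators and nuclear receptors it was 11 of 22, for other chaperones 5 of 15 and for stress response targets 6 of 17.

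The 95% interval of this difference lay within 1.5-fold for 19 of the 32 genes. Both pairs of a sex had opposite dyes, so the dye term absorbs part of the gap between them and the standard errors leave it out, and the fit leaves 1 residual degree of freedom. Of the markers of other cells, 7 of 10 for white fat, 2 of 11 for brown fat and 0 of 11 for urothelium passed in the same comparison (limma adjusted p under 0.05). Their median difference of the log2 ratio, male minus female, was 1.47 over 11 brown fat markers, 2.86 over 10 white fat markers and 2.17 over 11 urothelium markers, and the part of these cells in the values of the 32 genes was not tested.

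**Figure D2:**
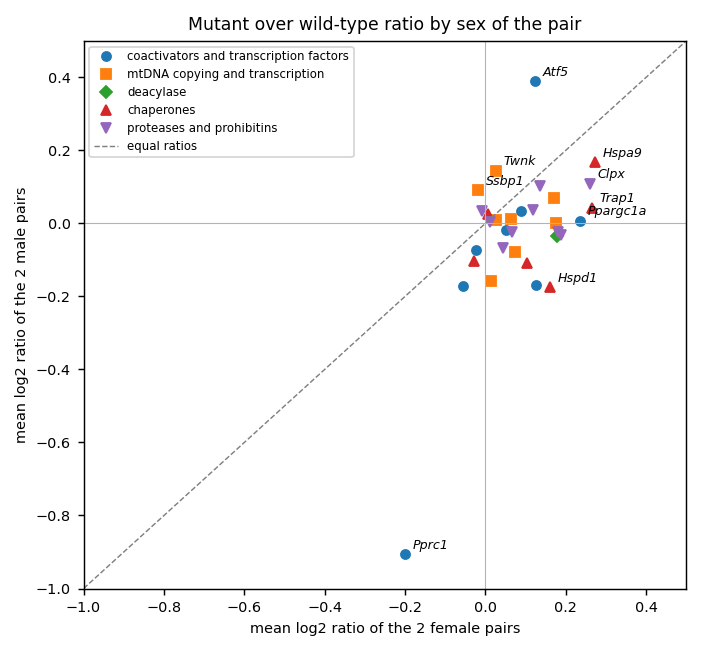
Mean log2 ratio of mutant over wild type in the 2 female pairs (horizontal axis) and the 2 male pairs (vertical axis) for the 32 genes, with a symbol for each role and a dashed line where both ratios are equal. Of the genes, 27 lie below the line and 5 above it; Pprc1 lies farthest out, at −0.20 and −0.91.

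Both sexes were then compared over the 8 samples, with genotype and dye in the fit. Here 8 of the 32 genes passed (limma adjusted p under 0.05), 3 higher and 5 lower in males, against 45.5% of all items, of which 18.4% were higher and 27.1% lower in males. The genes higher in males were Hspd1, Hspa9 and Afg3l2, and those lower in males were Sirt1, Atf5, Trap1, Clpp and Yme1l1. The median log2 ratio of male over female was −0.03 for the 32 genes and −0.10 for all items. The groups did not overlap for 6 genes, Hspd1, Hspa9, Afg3l2 and Sirt3 higher and Sirt1 and Tfb1m lower in males, against 43% of all items (18% higher and 25% lower in males). These counts rest on few arrays: without replicate 1 none of the 32 genes passed, without replicate 2 only Hspd1 did, and with the correlation between both channels of a spot estimated from the whole model only Hspd1 did.

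Hspd1 had the largest difference between the sexes of the 32 genes. With the values given above, all 4 males lay between 15.57 and 16.20 and all 4 females between 14.88 and 15.43. The means were 15.97 ± 0.28 in males and 15.21 ± 0.25 in females (SD, n = 4), a log2 ratio of 0.76 ± 0.100 (SE), or 1.69-fold, with a limma adjusted p of 0.0020. Hspe1 differed by −0.03 ± 0.104 (limma adjusted p = 0.84), with a 95% interval of −0.28 to 0.22, and its 2 dimmer probes gave −0.18 and −0.16. The intervals of Hspd1 (0.52 to 1.00) and Hspe1 do not meet, although a test of the difference between both genes was not made and probes of different genes respond differently.

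Hspd1 and Hspe1 lie head to head on mouse chromosome 1 and are known to be transcribed in opposite directions from a shared promoter, which is shown here because the levels of both genes differed in their relation to sex. RefSeq (GRCm38.p6) lists 2 starts for Hspd1, 216 and 95 bases from that of Hspe1. The 250 bases before the start of Hspe1 and before the first of these starts overlap by 215 bases, and the second window of Hspd1 does not overlap that of Hspe1. Capitals mark the matches to the cores of the GA-binding protein (CCGGAAG) and nuclear respiratory factor 1, the heat shock element GAANNTTC and the estrogen-related receptor's element AAGGTCA, on either strand.
Hspe1, chr1:55087898-55088147, plus strand: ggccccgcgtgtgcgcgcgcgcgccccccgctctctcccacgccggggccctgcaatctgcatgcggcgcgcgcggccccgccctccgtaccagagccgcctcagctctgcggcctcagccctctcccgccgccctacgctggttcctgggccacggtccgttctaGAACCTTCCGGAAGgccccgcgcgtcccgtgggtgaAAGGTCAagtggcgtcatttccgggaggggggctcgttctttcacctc
Hspd1, chr1:55087933-55088182, minus strand: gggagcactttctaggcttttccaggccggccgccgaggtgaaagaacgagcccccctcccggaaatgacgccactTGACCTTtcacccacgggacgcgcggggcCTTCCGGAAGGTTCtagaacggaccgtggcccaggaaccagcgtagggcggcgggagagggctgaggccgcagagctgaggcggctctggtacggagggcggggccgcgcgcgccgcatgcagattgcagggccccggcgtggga
Hspd1, chr1:55088244-55088493, minus strand: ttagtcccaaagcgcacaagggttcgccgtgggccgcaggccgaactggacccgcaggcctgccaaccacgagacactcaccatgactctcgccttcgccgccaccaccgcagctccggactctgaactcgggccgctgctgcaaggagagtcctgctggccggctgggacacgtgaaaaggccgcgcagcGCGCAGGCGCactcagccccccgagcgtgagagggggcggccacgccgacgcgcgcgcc

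In the shared stretch the heat shock element overlaps the core of the GA-binding protein, which is present on both strands there, and the same letters are read from either gene. The core of nuclear respiratory factor 1 was found only in the second window of Hspd1, 59 bases before that start. The heat shock element was found before 2 of the 29 genes, Hspd1 and Hspe1, which share the same match, and before 7.73% of all genes. Both windows of the shared stretch are rich in G and C, at 72.8% before Hspe1 and 69.6% before Hspd1.

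Hspa9, like Hspd1 a folding chaperone of the matrix, was 1.35-fold higher in males. Males lay between 13.87 and 14.28 and females between 13.40 and 13.87, without overlap before rounding, and the log2 ratio was 0.43 ± 0.124 (SE, limma adjusted p = 0.0297). Afg3l2, a subunit of the matrix-facing inner membrane protease, had means of 12.14 ± 0.05 in males and 11.85 ± 0.15 in females (SD, n = 4). All 4 males exceeded all 4 females, and the log2 ratio was 0.29 ± 0.089 (limma adjusted p = 0.0379).

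**Figure D3:**
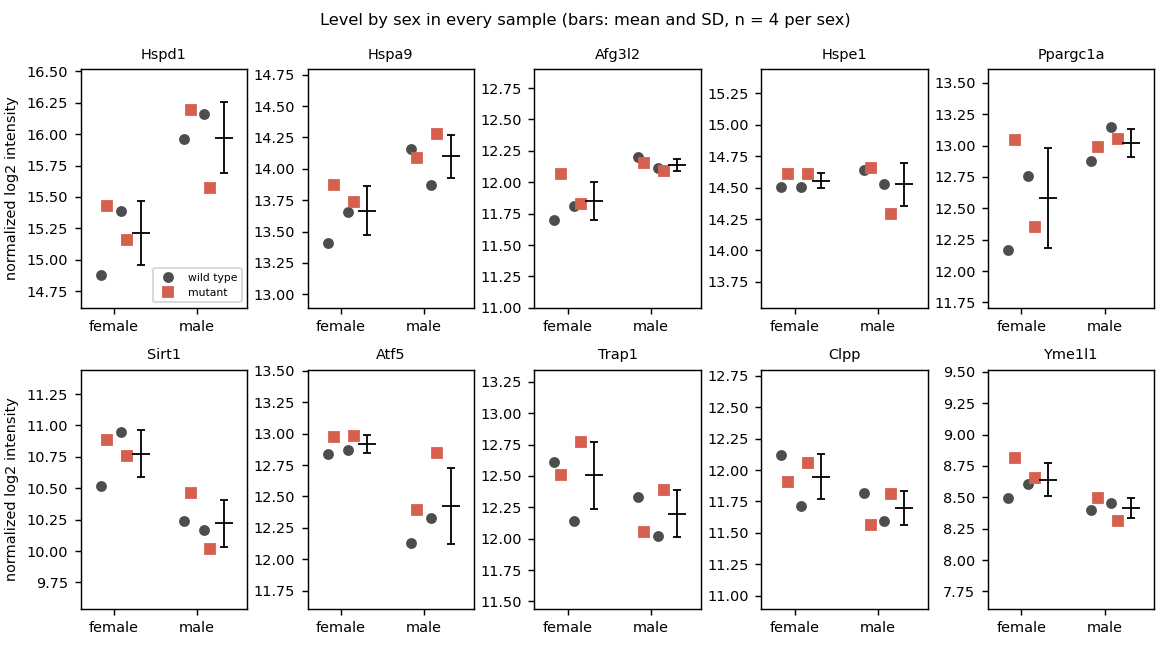
Normalized log2 intensity of 10 genes in every sample, females at left and males at right of each panel, with wild-type samples as circles, mutant samples as squares and the mean and SD (n = 4 per sex) as bars. All panels span the same range on the vertical axis; the males of Hspd1, Hspa9 and Afg3l2 lie above all females, those of Sirt1 below, and Hspe1 and Ppargc1a overlap.

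Sirt1 was the gene with the largest difference toward females. Wild-type mice 1 to 4 gave log2 intensities of 10.52, 10.95, 10.24 and 10.17, and mutant mice 1 to 4 gave 10.88, 10.76, 10.46 and 10.01. All 4 males lay below all 4 females. Sirt1 fell by 0.56 ± 0.113 on the log2 scale in males (SE, limma adjusted p = 0.0090). Atf5, with the values given above, had means of 12.42 ± 0.30 in males and 12.92 ± 0.07 in females (SD, n = 4), a log2 ratio of −0.49 ± 0.121 (limma adjusted p = 0.0178), and mutant male replicate 4 reached the level of the females.

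The other genes lower in males were 1 chaperone and 2 proteases. Trap1 had a log2 ratio of −0.31 ± 0.079 (limma adjusted p = 0.0210), Clpp −0.25 ± 0.083 (limma adjusted p = 0.0457) and Yme1l1, a protease facing the intermembrane space, −0.23 ± 0.075 (limma adjusted p = 0.0483). In all 3 the samples of both sexes overlapped. Within the role of proteases and prohibitins, 1 of 9 was higher and 2 lower in males, and within the chaperones, 2 of 6 were higher and 1 lower.

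None of the 8 genes for copying and transcribing mitochondrial DNA passed between the sexes, and their log2 ratios of male over female lay between −0.17 (Tfb1m) and 0.09 (Ssbp1). For Tfam the log2 ratio was −0.05 ± 0.095, with a 95% interval of −0.28 to 0.18. Of the 8 coactivators and transcription factors, Atf5 and Sirt1 passed and the other 6 did not. Nrf1 had a log2 ratio of 0.08 ± 0.109, Ppargc1b 0.07 ± 0.147, Pprc1 0.09 ± 0.289, Gabpa −0.16 ± 0.095 and Esrra −0.11 ± 0.089. Apart from Ppargc1a, which is described next, Sirt3 (0.18 ± 0.075) and Spg7 (0.18 ± 0.076) were nearest to the threshold among the genes that did not pass, with limma adjusted p values of 0.0975 and 0.0928.

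**Figure D4:**
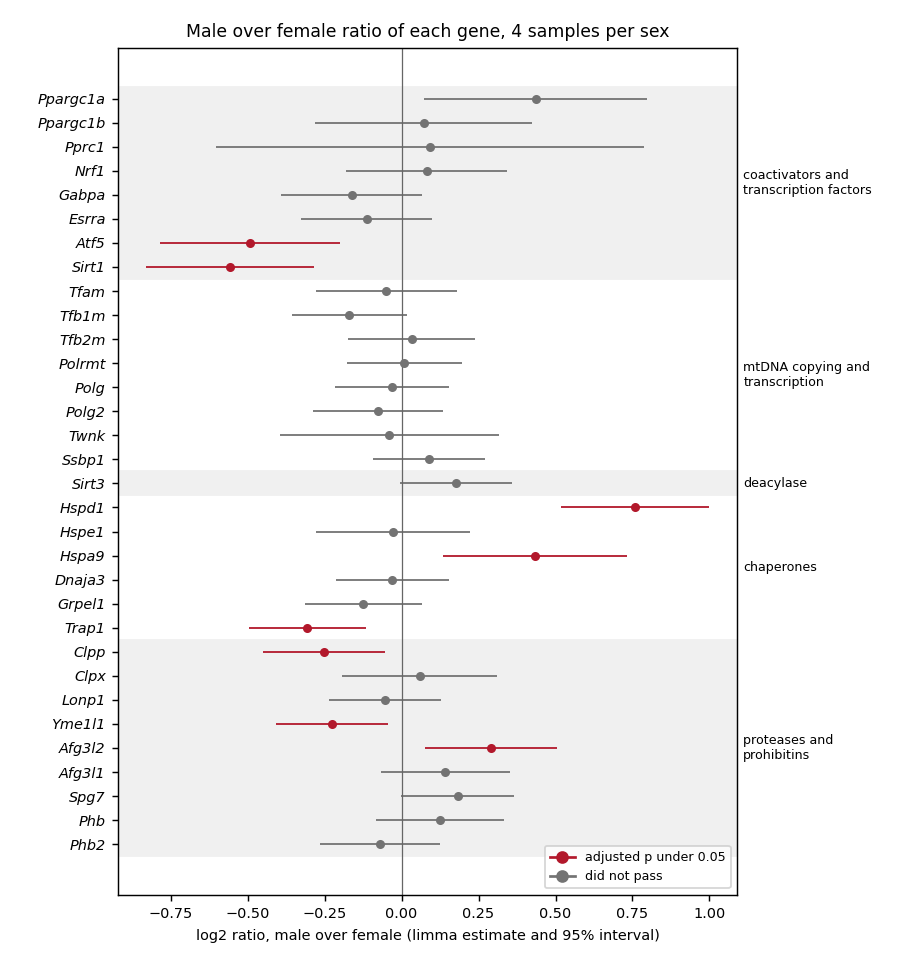
Log2 ratio of male over female for each of the 32 genes, grouped by role, with limma's estimate (point) and 95% interval (line); the 8 genes past an adjusted p of 0.05 are in red. Estimates run from −0.56 (Sirt1) to 0.76 (Hspd1), and the 8 genes for mitochondrial DNA lie between −0.17 and 0.09.

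The probes of Ppargc1a disagreed between the sexes. The brighter probe, which stands for the gene, had means of 13.02 ± 0.11 in males and 12.58 ± 0.40 in females (SD, n = 4), a log2 ratio of 0.44 ± 0.151 that did not pass (limma adjusted p = 0.0551). By the dimmer probe the log2 intensity was 9.22, 9.51, 8.87 and 9.03 in wild-type mice 1 to 4, and 9.60, 9.40, 8.68 and 8.98 in mutant mice 1 to 4. Here every male lay below every female, and with each probe as its own item the log2 ratio was −0.54 ± 0.123 (limma adjusted p = 0.0131). Between genotypes the probes gave 0.12 and 0.01. Both probes were designed to the same transcript accession, and the direction of Ppargc1a between the sexes is therefore not settled by these arrays.

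**Figure D5:**
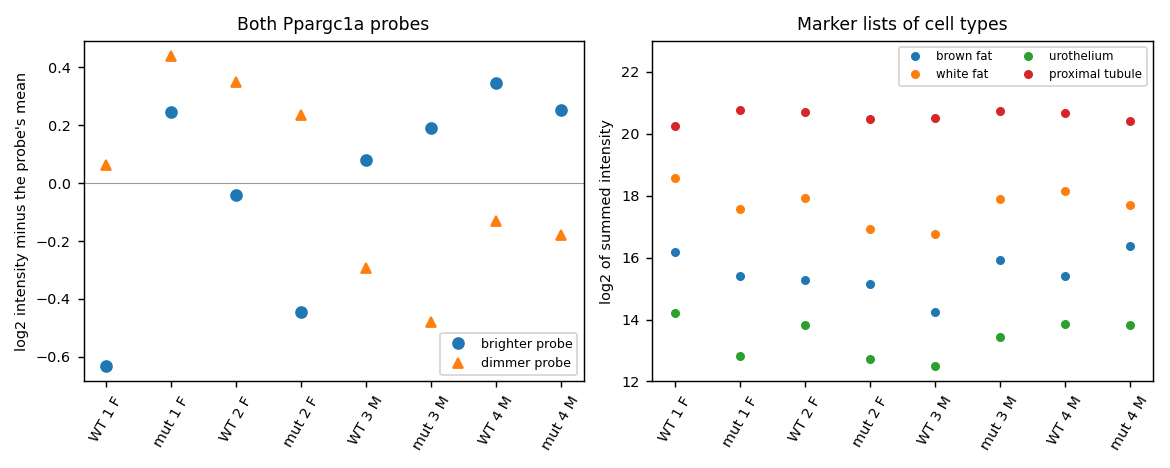
Left, log2 intensity of both Ppargc1a probes in the 8 samples, each minus the probe's own mean, with samples named by genotype (WT, wild type; mut, mutant), replicate and sex (F, M). Right, log2 of the summed intensity of 4 lists of cell type markers in the same samples; the brighter probe is 0.44 higher and the dimmer probe 0.54 lower in males on the log2 scale, and brown fat markers run from 14.24 to 16.36.

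Other genes had more than 1 kept probe too. Of the 32 genes 22 had 1 kept probe, 5 had 2 and 5 had 3, and 47 of 49 probes in all were kept. With each probe as its own item, 10 of the 47 probes passed between the sexes, in 10 genes, against 44.2% of all kept probes, and 0 passed between genotypes, against 0.0207%. Dimmer probes of Afg3l1 and Phb2 were lower in males (−0.29, limma adjusted p = 0.0247, and −0.36, limma adjusted p = 0.0124), whereas the brightest gave 0.14 and −0.07 and did not pass. The summed immune markers differed between the sexes as well, at 15.14 to 15.35 in females and 16.52 to 16.89 in males on the log2 scale. Of the 6 immune genes measured, Itgam had a log2 ratio of male over female of 2.32 and the other 5 were between −0.65 and −0.09. Of 6 endothelial markers 4 were lower in males and 0 higher (limma adjusted p under 0.05), and their sum was 14.45 to 14.55 in females and 14.06 to 14.32 in males, without overlap. Of 6 erythroid markers 4 and of 6 podocyte markers 3 were lower in males, and 0 of either were higher, while their sums overlapped between the sexes. Of 12 proximal tubule markers 3 were higher and 3 lower in males, of 10 distal nephron markers 1 and 4, and of 5 muscle markers 1 and 3. For comparison, 18.4% of all items were higher and 27.1% lower in males. The part of these cells in the differences of the 32 genes was not tested.

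Further genes of the same pathways were taken from lists drawn up by function. None of them passed between genotypes in any list (limma adjusted p under 0.05, 0 in each of 8 lists). In the list of other mitochondrial proteases and related genes, 16 of 18 had a log2 ratio of mutant over wild type above 0, with a median of 0.08. Of these 18 genes, 4 had an unadjusted p under 0.05 (limma), all higher in mutants. For comparison, 48% of all items were above 0 and 2.58% were higher at an unadjusted p under 0.05, and with median normalization 13 of the 18 genes were above 0. The 4 genes were Afg1l (0.27 ± 0.102), Mipep (0.28 ± 0.113), Oma1 and Pmpcb. Afg1l encodes an ATPase and Mipep an enzyme that trims imported proteins. Oma1 encodes a stress-activated protease of the inner membrane, and Pmpcb a subunit of the peptidase that removes targeting sequences. All 4 had a limma adjusted p of 0.98.

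In the list of other chaperones (15 measured, 8 above 0), Hscb, a cochaperone for iron-sulfur cluster assembly encoded on chromosome 5, had the lowest ratio of mutant over wild type. The log2 intensities were 12.37, 12.43, 11.97 and 12.32 in the 4 wild-type mice, in order of replicate, and 11.91, 11.85, 11.61 and 11.72 in the 4 mutants, so that every mutant lay below every wild-type sample. The log2 ratio was −0.50 ± 0.070 (SE, n = 4 arrays, limma adjusted p = 0.385). Pus1 lies on chromosome 5 as well, and the part of DNA inherited with the mutant allele in this ratio was not tested. The ratio of Hspa1a, a stress-inducible cytosolic Hsp70, was second in size in this list, at −0.23 ± 0.243.

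Asns, asparagine synthetase and a known target of the integrated stress response, had the largest ratio among 17 measured stress response targets. On arrays 1 to 4 the log2 intensity was 10.84, 10.92, 9.33 and 10.03 in the wild-type mouse and 11.36, 11.36, 10.07 and 10.12 in the mutant. The mutant was higher on all 4 arrays, with a fitted log2 ratio of 0.45 ± 0.092 (limma unadjusted p = 0.00286, adjusted p = 0.98). The list as a whole had 8 genes above and 9 below 0, and Cebpb, a transcription factor of the same response, had −0.37 ± 0.208.

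The other lists had log2 ratios of mutant over wild type between −0.21 and 0.31. Among 22 other coactivators and nuclear receptors, 10 were above 0. Farthest out were Perm1 (0.27 ± 0.095), a muscle regulator of PGC-1 targets, and, below 0, Pparg (−0.21 ± 0.314). Pparg is also among the brown fat markers. Its log2 ratios were −0.93 and −0.96 in the female pairs and 0.85 and 0.21 in the male pairs. Among 26 other genes for mitochondrial DNA and RNA, 18 were above 0, with Rrm2b (0.18 ± 0.113) and Mgme1 (−0.15 ± 0.101) farthest out. Among 26 protein import genes 13 were above 0, with Chchd4 (0.23 ± 0.088) and Gfer (0.20 ± 0.160), which drive disulfide-linked import, farthest out. Among 16 genes of mitochondrial dynamics and mitophagy 12 were above 0, with Immt (0.26 ± 0.088), a cristae organizer, and the fusion gene Mfn1 (0.16 ± 0.094), and among 11 sirtuin and NAD genes 8 were, with Sirt4 (0.31 ± 0.073) and Nampt (0.19 ± 0.086). All of these had a limma adjusted p of 0.98. With median normalization 11 of the genes for mitochondrial DNA and RNA, 10 for dynamics and mitophagy and 8 for sirtuins and NAD were above 0. In the same setting 9 of the other coactivators and nuclear receptors and 7 of the protein import genes were. Of all items 48% were above 0, and 38.8% with median normalization.

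The same lists were compared between the sexes. The number of calls depends on the fit. With the correlation between both channels of a spot estimated from the whole model, 3836 of all items passed, against 10065 in the main fit. Among 26 other genes for mitochondrial DNA and RNA, 7 were higher and 4 lower in males (limma adjusted p under 0.05). For comparison, 18.4% of all items were higher and 27.1% lower. Fastkd1, an RNA-binding protein of mitochondria, had log2 intensities of 9.41, 9.48, 10.58 and 10.65 in wild-type and 9.67, 9.40, 10.61 and 10.74 in mutant replicates 1 to 4. All males lay above all females, and the log2 ratio was 1.15 ± 0.095 (2.22-fold, limma adjusted p = 0.000371). Lrpprc, which stabilizes mitochondrial mRNAs, was 1.75-fold higher in males (0.81 ± 0.097, limma adjusted p = 0.00148), while its partner Slirp was lower, at −0.41. Mterf4, Top1mt, Mpv17, Tefm and Rrm2b were also higher, and Endog, Mterf2 and Pnpt1 also lower in males.

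Among 26 protein import genes 1 was higher in males, 10 were lower and 15 did not pass. Mtx2, a component of the outer membrane sorting machinery (−0.55 ± 0.076, limma adjusted p = 0.00244), and Tomm5, a small subunit of the outer membrane translocase (−0.54 ± 0.076, limma adjusted p = 0.0025), had the lowest ratios. Mtx1, Romo1, Timm10, Timm17b, Timm50, Timm8a1, Timm8b and Tomm20 were also lower, and Timm9 was higher. For comparison, 27.1% of all items were lower and 18.4% higher in males.

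Stress response targets had 1 of 17 higher in males and 8 lower, against 18.4% and 27.1% of all items. Asns had a log2 ratio of −1.23 ± 0.144 (2.34-fold lower in males, limma adjusted p = 0.00134) and Cth, an enzyme of cysteine synthesis, −0.76 ± 0.092 (limma adjusted p = 0.00154). Atf3, Chac1, Mthfd2, Pck2, Phgdh and Trib3 were also lower and Psat1, an enzyme of serine synthesis, was higher. Atf5 was lower in males as well, as given above.

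Among 18 other proteases and related genes 2 were higher in males (Afg1l and Metap1d) and 5 lower (Immp1l, Immp2l, Maip1, Oma1 and Pitrm1). Of all items 18.4% were higher and 27.1% lower in males. Immp1l and Immp2l, both subunits of the inner membrane peptidase, had log2 ratios of −0.68 ± 0.098 and −0.71 ± 0.106 (limma adjusted p of 0.00267 and 0.00313). Among 15 other chaperones 3 were higher (Grpel2, Hsph1 and Timm44) and 2 lower (Bcs1l and Dnlz), against the same shares of all items. Hsph1, a cytosolic Hsp110, had a log2 ratio of 0.56 ± 0.095 (limma adjusted p = 0.00472), and Dnlz, a binding partner of mitochondrial Hsp70, −0.44 ± 0.086 (limma adjusted p = 0.00778).

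The last lists are again to be set against 18.4% of all items higher and 27.1% lower in males. Of 22 other coactivators and nuclear receptors, 4 were higher in males (Med1, Ncor1, Prkaa2 and Thrb) and 6 lower (Esrrb, Esrrg, Myc, Nfe2l2, Ppard and Yy1). The lowest were Myc (−0.57 ± 0.137, limma adjusted p = 0.0157) and Nfe2l2, the antioxidant regulator (−0.55 ± 0.094, limma adjusted p = 0.00493). Of 16 dynamics and mitophagy genes, Dnm1l (0.45 ± 0.125, limma adjusted p = 0.0275), the fission GTPase, and Letm1 were higher, and Fundc1 (−0.49 ± 0.077, limma adjusted p = 0.00356), a mitophagy receptor, and Bnip3 were lower. Of 11 sirtuin and NAD genes, Sirt7 (0.52 ± 0.088, limma adjusted p = 0.00467) and Nmnat1 were higher and Cd38 (−0.50 ± 0.080, limma adjusted p = 0.00403), which breaks down NAD, Nadk2, Parp1, Sirt2 and Sirt5 were lower.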

How the data were processed

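The members and gene lists were chosen with earlier results of these data known. Per the file headers, Agilent Feature Extraction 10.7.3.1 made the deposited intensity values: median spot and local background intensity per channel, a processed signal already corrected for background and dye, and spot marks. The authors' deposited value table holds log2 values centred near 0 for each probe; for how they made it, the sources used here give nothing. It was used only as an alternative: its differences between paired samples correlated at 0.866 to 0.882 across genes with the ratios computed here.

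Background was removed from the median intensities with normexp (offset 50), and log2 ratios were loess-normalized, in limma 3.58.1 (R 4.3.3, with data.table, version 1.17.8), leaving out 3671 control spots and 191 to 252 outlier spots per array. Probes were named by accession through a RefSeq table (GRCm38.p6; 27509 of 55681 probes, 20887 genes). Probes well above background in at least 4 of 8 channels were kept, and the brightest represented its gene, giving 22128 items, 14287 with a symbol. Levels per sample are log2 intensities after Aquantile scaling. For sex, 22123 items had values in every channel.

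Genotype was tested with limma on 4 log2 ratios with a dye term, sex by genotype with an added term, and sex with limma's separate-channel fit, with terms for genotype within sex and dye. The intraspot correlation, 0.157, was estimated without the sex by genotype term, a choice known to give more calls than the whole model. P values are 2-sided and adjusted by Benjamini-Hochberg over all items (threshold 0.05). The median standard error was 0.0813 for genotype and 0.0983 for sex on the log2 scale. The pairing comes from the shared array. Deviations from genotype means correlated within replicates at 0.680 to 0.782, which sex alone raises; from means of genotype and sex the correlation was −0.267 for replicates 1 and 2 and 0.073 for replicates 3 and 4.

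Values in every sample are given for members that passed for genotype, the 6 largest log2 ratios for genotype or sex, the 4 largest for sex by genotype, and Ppargc1a, Nrf1, Tfam, Hspd1, Hspe1, Lonp1 and Clpp. From each other pathway list the 2 largest ratios for genotype and for sex and every gene that passed are named. Oma1, Pmpcb, Slirp and Itgam were given values or named after their values were seen. Scripts were tested on simulated data. Figures were made in Python 3.11.15 with matplotlib 3.10.9.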

Additional observations from a re-analysis of the deposited data

Results flagged for a closer look

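Groups of 4 samples were the 4 wild-type, 4 mutant, 4 female or 4 male samples of each of the 32 genes. In 9 of these 128 groups, or 7.03%, 1 sample stood far from the others. A rate of about 1 in 20 by chance holds for independent groups from 1 population. Here each sample enters a genotype group and a sex group of its gene, and the genotype groups hold both sexes. The rates can therefore not be compared. Ppargc1a in mutants had its lowest value in female replicate 2, at 12.36, with the others between 12.99 and 13.05. Pprc1 in males had its highest value in wild-type replicate 4, at 8.79, with the others at 7.03 to 7.30. Hspe1 stood out on both sides, highest in wild-type male replicate 3 (14.64) among wild types and lowest in mutant male replicate 4 (14.29) among mutants. Clpx in wild types was highest in male replicate 4 (12.38), Afg3l1 in mutants lowest in female replicate 1 (12.21), and Phb in wild types lowest in female replicate 1 (13.97). Among females, Tfb1m was highest in mutant replicate 1 (10.22) and Polg lowest in wild-type replicate 2 (10.23). The causes were not tested.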

How the results depend on the processing

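With 4 arrays, signal over background and array number limit what can be seen. For genotype, 0 of the 32 genes passed in all 14 alternatives, and their median log2 ratio of 0.029 moved by less than the spread between replicates, though its sign turned with median normalization (−0.005). Items called for genotype were 6, against 0 with Agilent's processed signals, 10 with median normalization, 0 with the deposited value table and 1 to 3 with 1 replicate left out. For sex by genotype, 0 of the 32 genes passed in all 9 alternatives, and their median difference of −0.105 was −0.143 to −0.049, nearest to 0 with median normalization. Items called were 31, against 0 with processed signals, 0 with an offset of 16, 224 with median normalization, 66 with no filter, 0 with no dye term and 54 with each kept probe as its own item, an alternative added after seeing the data. With no replicate block (the pairing by array left out), 5 items were called for genotype, 0 for sex by genotype and 11511 for sex, and 0, 0 and 10 of the 32 genes. For sex, 10065 items were called, against 3836 with the intraspot correlation from the whole model and 2543 to 8550 with 1 replicate left out. Of the 32 genes 8 passed for sex, against 4 with no filter, 1 with the correlation from the whole model and 0 to 6 with 1 replicate left out, where the lowest counts came without replicates 1 and 2. Hspd1 passed in 14 of 15 alternatives, with log2 ratios of 0.65 to 0.87 and limma adjusted p values of 0.00116 to 0.0553. Atf5 and Sirt1 passed in 12, Hspa9 in 11, Trap1 in 10, Afg3l2 in 9, Yme1l1 in 5 and Clpp in 4. Ppargc1a passed in 7, and with the mean of its probes its log2 ratio was −0.05. The log2 ratio of Pprc1 for sex ran from −0.34 without replicate 4 (limma adjusted p = 0.0467), whose wild-type sample was its highest, to 0.52 without replicate 3 (limma adjusted p = 0.0166). Other causes were not tested. Leaving out a replicate could not be run for sex by genotype, with no residual degrees of freedom, and for sex it used the correlation estimated from all 4 arrays, since 3 arrays gave none.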
